A study of Mus musculus with 60 samples.

Results

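Mouse tail tip fibroblasts with a defect in Ercc1, a subunit of a nuclease that acts in nucleotide excision repair and in the repair of DNA crosslinks, were treated with Vactosertib and compared with control cells of the same genotype. The comparison holds 6 of the 60 RNA libraries of the series, 3 of Ercc1(d/-) cells with Vactosertib and 3 of Ercc1(d/-) control cells, and both groups were chosen by their labels. The cells came from a 4-week-old female mouse with a single truncated Ercc1 allele, so both groups share that genotype, and they were grown at 3% oxygen for at most 3 passages. Vactosertib was given at 0.1 µM for 3 days. The study compares inhibitor-treated cells with cells it calls non-treated, and whether the control libraries had a vehicle is not given in the sources used here. For a closer comparison, the same experiment holds 3 libraries each of Ercc1(d/-) cells with Repsox (0.1 µM), A83-01 (1 µM) or DMH-1 (1 µM) for 3 days, and of control Ercc1(+/+) cells (WT) from a 14-week-old female. Nothing states that the 3 libraries of a group came from separate cultures or animals, so p-values measure only the spread between these libraries, which may be technical.

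TGFb ligands bind a pair of type II receptors and a pair of type I receptors, of which ALK5 (encoded by Tgfbr1) is the main type I receptor for TGFb and ALK4 (Acvr1b) for activins. The active complex phosphorylates Smad2 and Smad3, which enter the nucleus with Smad4 and switch on genes of the extracellular matrix and of the myofibroblast state. BMP ligands act through other type I receptors, among them ALK2 (Acvr1), and through Smad1, Smad5 and Smad9, with the Id genes as typical targets. In fibroblasts, TGFb is known for driving collagen production and the contractile program of wound healing. Vactosertib blocks the kinase of ALK5, and the study describes it as a dual inhibitor of ALK5 and ALK2. The question asked of these libraries was how the D/KO transcriptome (D/KO, Ercc1(d/-) cells) responds to the compound.

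Library totals of the 6 libraries ran from 17102639 to 24531041 counts (median 19779843.5), and levels are given as counts per 1000000 counts of the library (CPM), with library totals scaled by edgeR's TMM factors. Mitochondrial genes took 0.511 to 0.909% of counts in control and 1.11 to 1.21% in Vactosertib libraries, and the 10 most abundant genes took 13.6 to 14.8% and 10.1 to 10.7%. On the second component of a PCA, control libraries lay between -26.7 and -26.1 and Vactosertib libraries between 6.10 and 7.85. The fit across all 18 libraries also takes its spread from Repsox replicate 2 and DMH-1 replicate 2, which stand apart from their groups, and without them 2262 genes rose and 1984 fell (14.6 and 12.8% of 15518), an alternative chosen after seeing the data. Of the 144 genes named below by a rule set out with the processing, all 125 that were called kept their call in it. Smad3, Irf9 and Igfbp4 (higher) and Fn1, Bgn, Rad50 and Atf4 (lower) gained one (adjusted p 0.0109 to 0.0454). Fibroblast markers were present in every library, with a summed level of 83111 to 89303 CPM in control and 52169 to 55295 CPM with Vactosertib, of which collagens made up most. Endothelial markers were present in both groups, at 358 to 402.4 CPM summed in control and 329.1 to 415.6 CPM with Vactosertib (1 of 7, Tek, rose), with Cdh5 at 84.2 to 154 CPM and Vwf at or below 0.749 CPM. Keratinocyte markers summed to at most 3.93 CPM, with Krt14, Krt1, Cdh1 and Dsg3 at 0, and adipocyte markers to at most 0.187 CPM. Macrophage and leukocyte markers summed to at most 10.2 CPM in control and 19.1 CPM with Vactosertib (2 of 5 tested, Adgre1 and Mrc1, rose), Schwann cell markers to 15.04 to 18.8 and 30.3 to 31.9 CPM (3 of 6, among them Sox10 and Foxd3, rose), and pericyte markers to 132.1 to 162.0 and 143.2 to 203.4 CPM (Rgs5 and Notch3 rose, Kcnj8 and Abcc9 fell). Muscle markers summed to 20.6 to 26.6 and 9.59 to 11.4 CPM (Acta1 and Chrna1 fell), with Myod1, Pax7, Myog, Myf5 and Ckm at 0. Chondrocyte markers summed to 27.4 to 33.6 and 8.89 to 9.91 CPM (Sox9 fell), and melanocyte markers to at most 2.43 CPM. The part of other cell types in the results below was not tested, and fewer cells of a type and less RNA per cell cannot be told apart in bulk RNA.

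Ercc1 itself (chromosome 7, 19078703 to 19090449 in GRCm39), which overlaps Polr1g on the opposite strand, was read at 21.6, 21.4 and 22.1 CPM in the control libraries and 18.1, 19.6 and 17.9 CPM with Vactosertib. The 3 treated libraries lay below the 3 controls, but the difference did not pass the test (log2 fold change -0.23 ± 0.16, edgeR adjusted p = 0.357). In WT libraries Ercc1 was read at 19.9, 13.9 and 22.6 CPM, a range that holds the 3 D/KO control values, so its RNA level does not set the genotypes apart. Fold changes here and below are log2 of Vactosertib over control with their standard error (n = 3 and 3), from a two-sided quasi-likelihood F-test in edgeR. A gene is said to rise or fall where its p-value, adjusted over all 15164 genes tested by the method of Benjamini and Hochberg, was under 0.05. Aspn, Mfap4, Tk1, Mcm7, Xrcc6, Xab2 and Aldoa overlap other coding genes on the opposite strand as well (Cenpp, Mapk7, Afmid, Ap4m1 and Cops6, Desi1, Camsap3 and Tlcd3b), and reads of such partners may not be told apart.

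Vactosertib raised 1795 genes (11.8% of those tested) and lowered 1559 (10.3%). Changes of at least 2-fold numbered 1157 (7.63%), with 687 rises (4.53%) and 470 falls (3.1%), and genes called in either direction 3354 (22.1%). The median log2 fold change was 0.79 among the genes that rose, -0.69 among those that fell and 0.014 over all genes. Between the 3 treated and the 3 control libraries, 3341 genes (22%) did not overlap on the higher side and 3098 (20.4%) on the lower side.

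**Figure D1:**
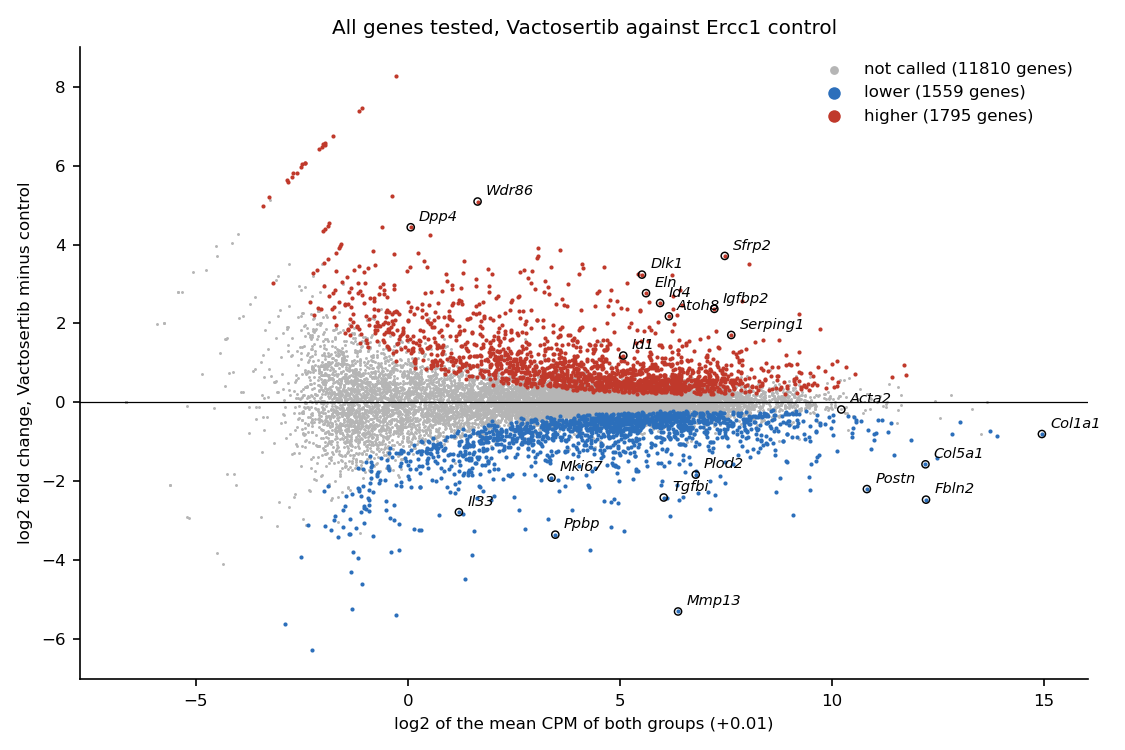
Each point is 1 of the 15164 genes tested, with the log2 of its mean CPM over both groups (plus 0.01) on the x axis and its log2 fold change (Vactosertib minus control, n = 3 and 3) on the y axis; red genes rose (1795), blue genes fell (1559) and grey genes were not called. Abundant matrix genes such as Col1a1, Col5a1, Postn and Fbln2 lie below 0 at the right, Mmp13 lies lowest of the genes whose names are drawn, and values of genes with no count in 1 group depend on the prior count of the fit.

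The largest rises among non-overlapping genes of at least 1 CPM were in 10 genes, most of them nearly silent in control cells. Timp4, an inhibitor of matrix metalloproteinases whose locus overlaps Syn2 on the opposite strand, had no count in any control library and 1.26, 1.91 and 1.72 CPM with Vactosertib, which is at least 31.9-fold higher when the control is set at a floor of 3 counts over the group. Dpp4, a surface peptidase found on fibroblast progenitors of the skin, went from 0.134, 0 and 0.125 to 1.92, 1.87 and 2.16 CPM (log2 fold change 4.44 ± 0.43, edgeR adjusted p = 1.17e-06).

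Wdr86, a WD repeat protein, was at 0.268, 0.103 and 0.125 CPM in control and 7.02, 4.69 and 6.43 CPM in treated libraries (log2 fold change 5.09 ± 0.39, edgeR adjusted p = 7.32e-08, and a log2 fold change of 5.68 without control replicate 1). Ncald, a neuronal calcium sensor, rose from 1.83, 0.923 and 1.87 to 21.8, 24.8 and 20.7 CPM (log2 fold change 3.86 ± 0.21, edgeR adjusted p = 1.55e-09). Gdpd2, a phosphodiesterase of glycerophospholipids, rose from 1.56, 0.564 and 0.936 to 15.2, 16.6 and 15.1 CPM (log2 fold change 3.90 ± 0.32, edgeR adjusted p = 1.8e-07). Pipox, an oxidase of pipecolic acid and sarcosine, Ces1g, a carboxylesterase, and Car10, a carbonic anhydrase-related protein, rose with log2 fold changes of 4.24, 3.85 and 3.80 (Car10 4.62 without control replicate 1). Aard had 2 counts in the 3 control libraries against 93 with Vactosertib, a ratio of 42.8 (95% counting interval 11.5 to 358), and the sulfotransferase Sult1a1 had 3 against 78, a ratio of 23.9 (7.88 to 118). Both rest on these few control counts: without control replicate 1 the fitted log2 fold changes moved from 5.24 to 8.15 for Aard, which was at 4.64 without Vactosertib replicate 1, and from 4.45 to 5.22 for Sult1a1. Such intervals cover counting error only.

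Among the 10 largest falls, Mmp13 was the only gene above 100 CPM in control cells. It encodes collagenase-3, a matrix metalloproteinase that cuts fibrillar collagen, and lies on chromosome 9, 7272514 to 7283331. Its level was 158, 158 and 166 CPM in the control libraries and 3.33, 4.34 and 4.60 CPM with Vactosertib (log2 fold change -5.30 ± 0.22, edgeR adjusted p = 6.49e-11), so the treated cells kept 2.54% of the control mean. Kcnj15, an inwardly rectifying potassium channel, fell from 30.2, 41.5 and 37.6 to 2.17, 3.98 and 1.94 CPM (log2 fold change -3.73 ± 0.31, edgeR adjusted p = 1.89e-07). Pcsk5, a proprotein convertase that cleaves precursors of secreted proteins, fell from 54.5, 67.1 and 64.3 to 5.71, 8.12 and 5.38 CPM (log2 fold change -3.27 ± 0.21, edgeR adjusted p = 9.81e-09). Ppbp, the chemokine Cxcl7, fell from 22.4, 21.6 and 16.5 to 1.56, 2.15 and 2.22 CPM (log2 fold change -3.35 ± 0.21, edgeR adjusted p = 9.67e-09).

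The other large falls were in genes of low level. Fcgr2b, an inhibitory receptor for immunoglobulin G, and Ptgs2os2, a non-coding RNA next to the prostaglandin synthase gene Ptgs2, had log2 fold changes of -4.48 ± 0.77 and -3.87 ± 0.47, which were -5.67 and -4.69 without Vactosertib replicate 3. Cxcr6, Pde11a and Abcc9 had 6, 7 and 6 counts in the treated libraries and log2 fold changes of -3.78 ± 0.82, -3.73 ± 0.69 and -3.38 ± 0.68. Pde11a was at -5.85 without Vactosertib replicate 3 and Abcc9 at -5.01 without Vactosertib replicate 2. The mucin gene Muc2 had 85 counts in control and 2 in treated libraries, a ratio of 46.2 (95% counting interval 12.4 to 388), and its fitted log2 fold change of -5.39 was -4.54 without control replicate 3 and -4.76 without Vactosertib replicate 2.

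The sequences just before the start sites of Mmp13 and of the stromelysin gene Mmp3, both known for an AP-1 element near the start, and of Smad6, a BMP target whose window holds the palindrome GTCTAGAC to which Smad3 and Smad4 can bind, are printed here from RefSeq (build GRCm38.p6, while the count files are on GRCm39), 5′ to 3′ on the gene's strand, with the motif in capitals. Positions count back from -1, the base before the start. The Mmp13 stretch is chr9:7272414-7272513 (plus strand), the Mmp3 stretch chr9:7445722-7445821 (plus strand) and the Smad6 stretch chr9:64022056-64022159 (minus strand, up to base 4 after the start).
Mmp13: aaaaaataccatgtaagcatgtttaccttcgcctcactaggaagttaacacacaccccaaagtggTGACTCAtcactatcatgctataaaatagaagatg
Mmp3: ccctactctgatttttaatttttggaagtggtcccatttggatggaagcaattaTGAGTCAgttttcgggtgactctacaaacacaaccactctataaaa
Smad6: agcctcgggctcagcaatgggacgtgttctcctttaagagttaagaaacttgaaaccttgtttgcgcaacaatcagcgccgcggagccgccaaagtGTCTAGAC
The AP-1 motif searched was TGACTCA on both strands, and it lies at -35 to -29 in Mmp13 and, on the other strand, at -46 to -40 in Mmp3. It was found in 5.2% of all 32851 promoters of the table, in 5% of the 1201 genes that fell and have a promoter in the table, in 6.28% of the 1338 that rose and in 4.4% of the 8401 that were not called. The motif GTCTAGAC reads the same on both strands, does not overlap TGACTCA, and was found in 0.213% of all promoters, 0.583% of the genes that fell and 0.299% of those that rose. In genes not called it was in 0.274%. A match is a description of the letters in a window of 250 bases before and 50 after the start, not a site or a cause, and 112 of the 144 genes named by rule have a promoter in the table (Id1 and Col1a1 do not). Fos, a subunit of AP-1 that was picked after its values were seen, rose from 37.5, 42.3 and 36.6 to 99.4, 105 and 110.00 CPM (log2 fold change 1.43 ± 0.12, edgeR adjusted p = 2.56e-07). Junb, another subunit, is given only beside Fos and is not counted among the 144. It was not called (log2 fold change 0.093 ± 0.14, edgeR adjusted p = 0.70).

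Within the TGFb pathway, the ligand list did not move in a single direction: of 10 ligand and latent binding protein genes tested, 3 rose (30%, against 11.8% of all genes), 2 fell (20%, against 10.3%) and 5 were not called (median log2 fold change 0.092, from 0.0227 without control replicate 1 and 0.0453 without Vactosertib replicate 2 to 0.139 without control replicate 2 and 0.152 without Vactosertib replicate 1). Tgfb1, the main TGFb ligand, fell from 96.2, 87.7 and 82.6 to 65.5, 60.4 and 61.1 CPM (log2 fold change -0.51 ± 0.098, edgeR adjusted p = 0.0011), and Tgfb2 rose from 11.6, 12.3 and 10.1 to 19.5, 17.9 and 13.4 CPM (log2 fold change 0.58 ± 0.18, edgeR adjusted p = 0.0294), a call lost without control replicate 1 or 3 or Vactosertib replicate 1 or 2 (adjusted p 0.067 to 0.132). Ltbp1, which holds latent TGFb in the matrix, rose from 120.4, 133 and 147 to 259, 338 and 291 CPM (log2 fold change 1.15 ± 0.15, edgeR adjusted p = 2.99e-05), while Ltbp2, which does not bind latent TGFb, fell (log2 fold change -0.77 ± 0.16, edgeR adjusted p = 0.00211). Inhbb, a subunit of activin and inhibin, rose from 331, 323 and 372 to 631, 686 and 697 CPM (log2 fold change 0.97 ± 0.09, edgeR adjusted p = 6.4e-07). Treated and control libraries of these 5 genes did not overlap. Ltbp3, another latent binding protein, was at 400.4, 442 and 442 CPM in control and 441, 507 and 486 CPM in treated libraries without a call (log2 fold change 0.16 ± 0.10, edgeR adjusted p = 0.321).

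Transcripts of both receptor kinases that the study names as targets of the compound were lower. Acvr1 (ALK2) went from 98.8, 106 and 99.9 CPM in control to 69.8, 71.3 and 69.5 CPM in treated libraries (log2 fold change -0.53 ± 0.075, edgeR adjusted p = 6.22e-05), and Tgfbr1 (ALK5) from 68.5, 75.8 and 70.8 to 51.9, 51.6 and 44.8 CPM (log2 fold change -0.54 ± 0.15, edgeR adjusted p = 0.0186). The Tgfbr1 call was lost without control replicate 2 or Vactosertib replicate 3 (adjusted p 0.069 and 0.0807). For Acvr1b (ALK4) the libraries overlapped, at 13.1, 20.3 and 18.5 CPM in control and 12.9, 14.2 and 13.3 CPM in treated libraries (log2 fold change -0.36 ± 0.20, edgeR adjusted p = 0.217), and for Tgfbr2, the type II receptor of TGFb, the values were 461, 526 and 530.2 CPM in control and 483, 505 and 413 CPM in treated libraries (log2 fold change -0.11 ± 0.15, edgeR adjusted p = 0.666). Of 13 receptors tested, 1 rose (7.69%, against 11.8% of all genes), 3 fell (23.1%, against 10.3%) and 9 were not called (median -0.17). The riser was Acvr2b, a type II receptor of activins (log2 fold change 1.09 ± 0.34, edgeR adjusted p = 0.0312), whose call was lost without control replicate 1 or 3 or Vactosertib replicate 1 or 2, leaving none, and the remaining fall was in the BMP receptor Bmpr1b (log2 fold change -1.48 ± 0.37, edgeR adjusted p = 0.00821, and a log2 fold change of -2.14 without Vactosertib replicate 2).

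Of 15 Smads and Smad regulators, 2 rose (13.3%, against 11.8% of all genes), 2 fell (13.3%, against 10.3%) and 11 were not called. The median was 0.045, and 0.0284 or 0.0678 without control replicate 1 or 2 and 0.0067 or 0.0833 without Vactosertib replicate 1 or 3. The genes that rose were Smad6, an inhibitory Smad, from 30.6, 31.04 and 29.8 to 68.7, 73.5 and 79.2 CPM (log2 fold change 1.28 ± 0.11, edgeR adjusted p = 2.56e-07), and Smad9, a Smad activated by BMP receptors, from 2.68, 2.92 and 2.43 to 8.63, 9.91 and 8.93 CPM (log2 fold change 1.77 ± 0.19, edgeR adjusted p = 2.79e-06). The genes that fell were Skil and Pmepa1. Lists share members, so their counts are not separate: Smad6 and Smad9 count again among the BMP targets, and Skil and Pmepa1 among the direct TGFb targets. Skil, a repressor of Smad-driven transcription, fell from 48.6, 48.2 and 44.99 to 15.1, 13.96 and 12.2 CPM (log2 fold change -1.78 ± 0.15, edgeR adjusted p = 2.56e-07), and Pmepa1, which binds Smad2 and Smad3, fell from 364, 363 and 355 to 148, 159 and 149.9 CPM (log2 fold change -1.24 ± 0.079, edgeR adjusted p = 9.51e-09). Smad3 was at 114, 125 and 133 CPM in control and 159, 162 and 136 CPM in treated libraries (log2 fold change 0.30 ± 0.15, edgeR adjusted p = 0.177, and 0.0482 with only the 6 libraries), and the inhibitory Smad7 at 38.1, 34.7 and 32.4 CPM in control and 29.4, 29.8 and 31.6 CPM in treated libraries (log2 fold change -0.22 ± 0.086, edgeR adjusted p = 0.0887).

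Direct targets of TGFb signalling fell more often than they rose. Of 19 targets tested, 9 fell (47.4%, against 10.3% of all genes), 2 rose and 8 were not called. The share that rose was slightly below the 11.8% of all genes. The median log2 fold change was -0.64, against 0.014 over all genes. Ccn2, the connective tissue growth factor (chromosome 10, 24471340 to 24474581), fell from 735, 702 and 634 to 188, 175 and 185 CPM (log2 fold change -1.92 ± 0.11, edgeR adjusted p = 1.6e-09). The lowest control library was well above the highest treated library.

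Tgfbi, a matrix protein named for its induction by TGFb, fell from 102, 117 and 111 to 17.2, 20.4 and 24.6 CPM (log2 fold change -2.41 ± 0.12, edgeR adjusted p = 5.74e-10). Postn, the matricellular protein periostin, fell from 2606, 3314 and 2981 to 609, 717 and 618 CPM (log2 fold change -2.19 ± 0.15, edgeR adjusted p = 2.58e-08). Scx, a transcription factor of tendon cells, fell from 6.93, 4.21 and 5.37 to 1.41, 2.59 and 1.61 CPM (log2 fold change -1.54 ± 0.37, edgeR adjusted p = 0.00633). These 3 genes kept 18.8, 21.8 and 33.99% of their control means. The risers were Edn1, the peptide endothelin 1, and Cdkn2b, an inhibitor of cyclin-dependent kinases, which went from 111, 94.9 and 104 to 159, 156 and 190.5 CPM (log2 fold change 0.71 ± 0.15, edgeR adjusted p = 0.00293). Not every abundant target was lower. Thbs1, a secreted activator of latent TGFb, was at 9620, 11443 and 11104 CPM in control and 9324, 10784 and 8312 CPM in treated cells, with overlapping groups (log2 fold change -0.18 ± 0.17, edgeR adjusted p = 0.509).

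Most BMP targets rose. Of 13 genes tested, 10 rose (76.9%, against 11.8% of all genes), none fell (0%, against 10.3%) and 3 were not called (median 1.28). For falls, edgeR gave 1 member, Smad7, an unadjusted p under 0.05, and DESeq2 called it lower (adjusted p 0.0497). The Id proteins block differentiation factors of the helix-loop-helix family. Id1 (chromosome 2, 152578171 to 152579330) was at 22.7, 18.98 and 20.03 CPM in control and 43.2, 41.8 and 55.7 CPM in treated libraries (log2 fold change 1.19 ± 0.25, edgeR adjusted p = 0.00255), and Id2 at 13.8, 15.2 and 10.1 CPM in control and 45.3, 40.6 and 49.97 CPM in treated libraries (log2 fold change 1.79 ± 0.18, edgeR adjusted p = 1.23e-06). Id4 went from 18.8, 17.2 and 18.8 to 107, 107 and 99.6 CPM (log2 fold change 2.52 ± 0.11, edgeR adjusted p = 1.08e-10), a locus with antisense genes on the opposite strand.

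Atoh8, a helix-loop-helix factor induced by BMP, rose from 28.1, 26.5 and 22.3 to 110.2, 118 and 121 CPM (log2 fold change 2.18 ± 0.098, edgeR adjusted p = 1.23e-10). Hey1, a repressor that responds to BMP and Notch, rose from 2.15, 1.79 and 1.69 to 7.22, 6.45 and 7.21 CPM (log2 fold change 1.88 ± 0.28, edgeR adjusted p = 9.23e-05). Bambi, a decoy receptor, was at 9.74, 8.72 and 6.18 CPM in control and 13.7, 10.2 and 14.03 CPM in treated libraries, with the 3 treated libraries above the controls but no call (log2 fold change 0.61 ± 0.26, edgeR adjusted p = 0.114, and 0.03 with only the 6 libraries). With each library left out in turn, 9 or 10 of the 13 were called higher.

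**Figure D2:**
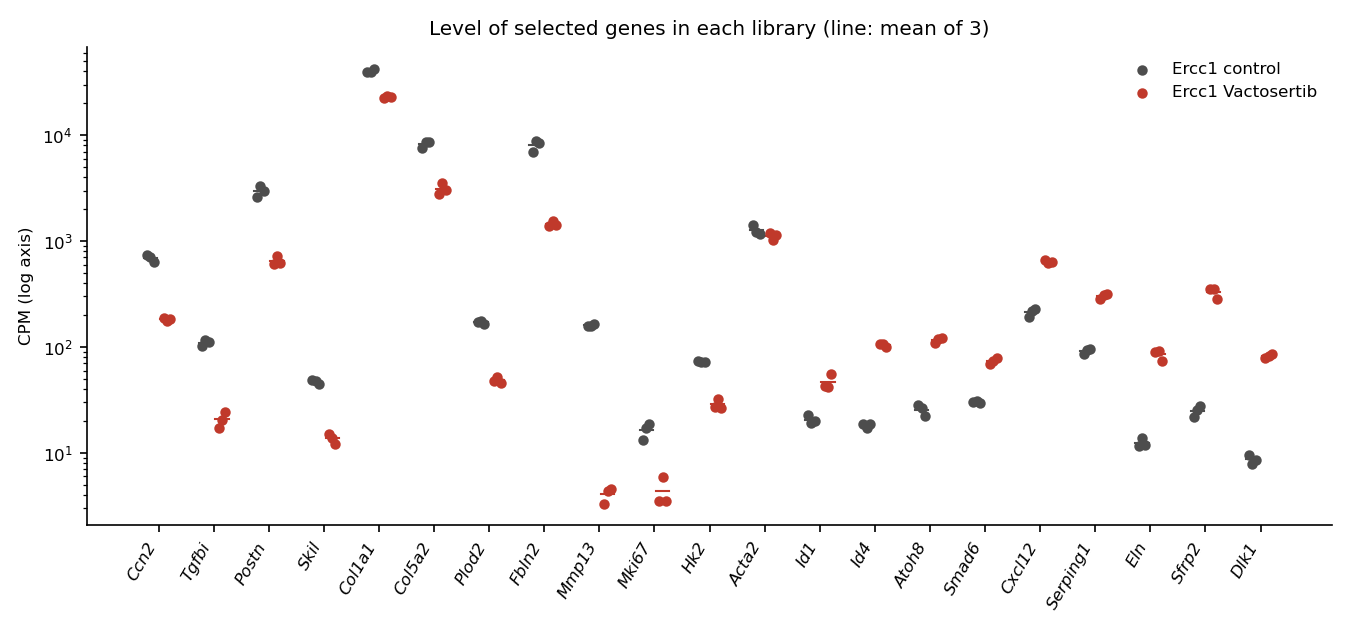
CPM on a log axis of 21 genes in each of the 3 control (grey) and 3 Vactosertib libraries (red), with a line at the mean. TGFb targets, matrix genes, Mmp13, Mki67 and Hk2 sit lower with Vactosertib, the BMP targets Id1, Id4, Atoh8 and Smad6 and the genes from Cxcl12 to Dlk1 sit higher, and for Acta2 the libraries overlap.

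Of 19 contractile genes of the myofibroblast tested, 5 fell (26.3%, against 10.3% of all genes), 1 rose and 13 were not called (median -0.18, and -0.0895 without control replicate 1 or -0.294 without Vactosertib replicate 3). Without Repsox replicate 2 and DMH-1 replicate 2 in the fit, 3 rose and 7 fell. Acta2, the smooth muscle actin that defines the myofibroblast, was at 1413, 1206 and 1169 CPM in control and 1183, 1027 and 1137 CPM in treated libraries (log2 fold change -0.18 ± 0.14, edgeR adjusted p = 0.43), and Cald1, an actin-binding protein, at 741, 849.9 and 870.1 CPM in control and 749, 818 and 621 CPM in treated libraries (log2 fold change -0.17 ± 0.16, edgeR adjusted p = 0.512). The largest fall in the list was in Itga11, a collagen-binding integrin subunit, from 183, 281 and 289 to 43.02, 63.01 and 41.4 CPM (log2 fold change -2.35 ± 0.32, edgeR adjusted p = 4.58e-05). Smtn, the cytoskeletal protein smoothelin, fell (log2 fold change -0.60 ± 0.08, edgeR adjusted p = 3.75e-05), as did Cnn1, Des and Actg2. The calponin Cnn1 (log2 fold change -0.63 ± 0.18, edgeR adjusted p = 0.0202), the intermediate filament gene Des (log2 fold change -0.67 ± 0.20, edgeR adjusted p = 0.0225) and the calponin Cnn2, the riser (log2 fold change 0.39 ± 0.12, edgeR adjusted p = 0.0279), lost their calls without single libraries (adjusted p 0.0551 to 0.121): 2 members fell without control replicate 1 or Vactosertib replicate 1 or 2, and none rose without control replicate 2 or 3 or Vactosertib replicate 1 or 3.

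Most collagen chains fell. Of 22 tested, 14 fell (63.6%, against 10.3% of all genes), 1 (Col14a1) rose and 7 were not called (median -0.65), 9 fell without control replicate 3 or Vactosertib replicate 1 or 3, and none rose without control replicate 1 or 2 or Vactosertib replicate 1 or 2. Col1a1, a chain of type I collagen (chromosome 11, 94827050 to 94843868), was at 39060, 38980 and 42292 CPM in control and 22415, 23623 and 23068 CPM in treated libraries (log2 fold change -0.80 ± 0.13, edgeR adjusted p = 0.000244), or 57.4% of the control mean. The fibril-regulating type V chains fell further, Col5a1 from 6232, 7217 and 7680 to 2117, 2726 and 2286 CPM (log2 fold change -1.57 ± 0.17, edgeR adjusted p = 4.38e-06) and Col5a2 from 7598, 8547 and 8580 to 2767, 3532 and 3022 CPM (log2 fold change -1.41 ± 0.14, edgeR adjusted p = 1.22e-06). Col7a1, the anchoring fibril collagen beneath the epidermis, had the largest fall of the list, from 36.5, 43.2 and 45.5 to 6.72, 6.84 and 8.60 CPM (log2 fold change -2.501 ± 0.16, edgeR adjusted p = 1.14e-08). In the basement membrane chain Col4a1, whose gene overlaps Col4a2 on the opposite strand, the log2 fold change was smaller in size (log2 fold change -0.96 ± 0.25, edgeR adjusted p = 0.0101). Col6a1 was at 2868, 3260 and 3506 CPM in control and 2837, 2984 and 2565 CPM in treated libraries, and its groups overlapped (log2 fold change -0.20 ± 0.14, edgeR adjusted p = 0.374).

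Most of the genes that modify and process procollagen fell as well. Of 20 tested, 14 fell (70%, against 10.3% of all genes), none rose (0%, against 11.8%) and 6 were not called (median -0.66). No member was called higher by DESeq2 either, and 2 had a higher level at an unadjusted p under 0.05 in edgeR. Lysyl hydroxylases prepare collagen for crosslinking. Among them, Plod2 fell from 174, 177 and 165 to 47.9, 51.6 and 45.6 CPM (log2 fold change -1.83 ± 0.10, edgeR adjusted p = 1.88e-09) and Plod1 from 994, 1081 and 1151 to 363, 376 and 351 CPM (log2 fold change -1.57 ± 0.10, edgeR adjusted p = 9.81e-09). The prolyl hydroxylase subunits, which stabilise the triple helix, were lower too: P4ha2 went from 587, 567 and 582 to 236, 213 and 239.6 CPM (log2 fold change -1.34 ± 0.098, edgeR adjusted p = 4.89e-08) and P4ha3 from 36.2, 47.7 and 50.4 to 12.8, 17.4 and 13.4 CPM (log2 fold change -1.62 ± 0.28, edgeR adjusted p = 0.000504). The collagen chaperone Serpinh1 stayed at 2440, 2369 and 2491 CPM in control and 2412, 2221 and 2178 CPM in treated libraries (log2 fold change -0.10 ± 0.076, edgeR adjusted p = 0.401), and Pcolce, an enhancer of procollagen cleavage, at 1417, 1372 and 1422 CPM in control and 1561, 1583 and 1731 CPM in treated libraries (log2 fold change 0.21 ± 0.094, edgeR adjusted p = 0.125).

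Among 30 other matrix genes, 20 fell (66.7%, against 10.3% of all genes), 5 rose (16.7%, against 11.8%) and 5 were not called (median -0.86). Fbln2, a fibulin of elastic fibres and basement membranes, fell from 6948, 8718 and 8466 to 1398, 1558 and 1420 CPM (log2 fold change -2.46 ± 0.17, edgeR adjusted p = 1.78e-08). Aspn, a small proteoglycan, fell from 223, 235 and 209 to 64.6, 52.7 and 49.4 CPM (24.99% of the control mean, edgeR adjusted p = 4e-09), and Vcan, the large proteoglycan versican, from 902, 1195 and 1220 to 282, 360.4 and 255 CPM (log2 fold change -1.89 ± 0.31, edgeR adjusted p = 0.000262). The microfibril gene Mfap4 was lower as well (log2 fold change -1.94 ± 0.22, edgeR adjusted p = 5.85e-06). All 5 members of the lysyl oxidase family in the list (Lox, Loxl1, Loxl2, Loxl3 and Loxl4), which crosslink collagen and elastin, fell.

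Against this trend, Eln, which encodes elastin, rose from 11.7, 13.9 and 11.98 to 90.5, 91.1 and 74.3 CPM (log2 fold change 2.77 ± 0.17, edgeR adjusted p = 4.23e-09), and Fbln5, Dcn, Comp and Ogn rose too. Fn1, fibronectin, spread widely between libraries, at 10181, 16977 and 17340 CPM in control and 8788, 10861 and 5976 CPM in treated cells, and was not called (log2 fold change -0.80 ± 0.38, edgeR adjusted p = 0.162). With no filter on low counts, or with only the 6 libraries, its adjusted p was 0.0443 and 0.0205. The proteoglycan Bgn had non-overlapping groups, at 6220, 7130 and 6823 CPM in control and 5259, 5618 and 4566 CPM in treated libraries, without a call (log2 fold change -0.39 ± 0.15, edgeR adjusted p = 0.0709), though DESeq2 (0.0492) and the fit of only the 6 libraries (0.0171) gave an adjusted p under the threshold.

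Of 26 matrix proteases and inhibitors tested, 10 fell (38.5%, against 10.3% of all genes), 4 rose (15.4%, against 11.8%) and 12 were not called. The risers were Timp2, Timp4, Adamts9 and Plaur, and the median was -0.29, also with Timp4 at its bound. Beside Mmp13, the stromelysin Mmp3 fell from 167, 145 and 139.9 to 28.2, 21.04 and 36.5 CPM (log2 fold change -2.40 ± 0.18, edgeR adjusted p = 7.04e-08), and Adamts6, a protease of the ADAMTS family, from 21.2, 31.2 and 23.3 to 3.99, 3.34 and 4.16 CPM (log2 fold change -2.72 ± 0.35, edgeR adjusted p = 2.11e-05). The gelatinase Mmp2 was at 821, 931 and 964 CPM in control and 968, 1015 and 889 CPM in treated libraries (log2 fold change 0.08 ± 0.13, edgeR adjusted p = 0.713).

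Most mitosis genes fell. Of 36 mitosis and spindle checkpoint genes, 26 fell (72.2%, against 10.3% of all genes), none rose (0%, against 11.8%) and 10 were not called. The median was -0.91, and with each library left out 18 to 23 of these genes fell. By edgeR at an unadjusted p under 0.05, and by DESeq2, 0 of them rose. Mki67, the antigen used to mark dividing cells, went from 13.3, 17.3 and 18.9 to 3.54, 5.97 and 3.55 CPM (log2 fold change -1.91 ± 0.42, edgeR adjusted p = 0.00341). Top2a, the topoisomerase that untangles chromosomes, fell from 32.7, 35.8 and 32.95 to 13.8, 13.1 and 11.5 CPM (log2 fold change -1.40 ± 0.20, edgeR adjusted p = 6.4e-05). Cenpf, a kinetochore protein, fell from 4.78, 6.36 and 5.68 to 0.757, 1.59 and 1.11 CPM (log2 fold change -2.26 ± 0.36, edgeR adjusted p = 0.000195). The kinetochore genes Cenpe and Knl1 fell by 1.73 and 1.46 on the log2 scale. Bub3, a checkpoint protein that also acts outside mitosis, was at 76.7, 64.9 and 71.5 CPM in control and 82.6, 69.4 and 77.9 CPM in treated libraries (log2 fold change 0.11 ± 0.13, edgeR adjusted p = 0.614).

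Of 34 genes of replication and S phase, 5 fell (Ccne1, Tk1, Pola1, Mcm5 and Mcm2; 14.7%, against 10.3% of all genes), none rose (1 at an unadjusted p under 0.05 in edgeR, 0 by DESeq2) and 29 were not called (median -0.28). The number that fell was 10 in a fit of only the 6 libraries, 3 without control replicate 1 or 2 or Vactosertib replicate 2, and 2 without Vactosertib replicate 3 or with no filter on low counts. Ccne1, cyclin E1, fell from 20.9, 20.01 and 22.4 to 7.07, 8.31 and 10.2 CPM (log2 fold change -1.31 ± 0.14, edgeR adjusted p = 4.68e-06), and the thymidine kinase Tk1 from 9.12, 8.93 and 7.80 to 5.15, 4.69 and 5.49 CPM (log2 fold change -0.76 ± 0.16, edgeR adjusted p = 0.00203). The helicase subunit Mcm7 was at 30.7, 30.5 and 30.5 CPM in control and 29.5, 26.8 and 28.1 CPM in treated libraries (log2 fold change -0.12 ± 0.086, edgeR adjusted p = 0.369) and the ribonucleotide reductase Rrm1 at 77.7, 72.8 and 65.5 CPM in control and 83.1, 82.4 and 78.3 CPM in treated libraries (log2 fold change 0.17 ± 0.082, edgeR adjusted p = 0.147). Whether mitosis and S phase genes differed in how often they were called was not tested.

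DNA repair genes were called at shares of 21.9% (homologous recombination and crosslink repair), 31.2% (end joining) and 13% (nucleotide excision repair), against 22.1% of all genes. Of 32 genes of homologous recombination and crosslink repair, 5 fell (Brca1, Rad51ap1, Blm, Brca2 and Rbbp8), 2 rose (Fancc and Fancf) and 25 were not called (median -0.28, and -0.183 without control replicate 1). Brca1, a central factor of homologous recombination, was at 2.32, 2.41 and 3.49 CPM in control and 1.01, 1.35 and 0.832 CPM in treated cells (log2 fold change -1.34 ± 0.37, edgeR adjusted p = 0.0141), and Brca2 at 3.40, 4.87 and 5.30 CPM in control and 2.22, 2.98 and 1.997 CPM in treated libraries (log2 fold change -0.90 ± 0.25, edgeR adjusted p = 0.0143). The Brca1 call was lost without control replicate 3 or Vactosertib replicate 1 or 3 (adjusted p 0.052 to 0.0665), and that of Brca2 without these or control replicate 2 (0.0541 to 0.0659) or with all 24 libraries (0.0896). The members that fell numbered 1 without control replicate 3 or Vactosertib replicate 1 or 3, 3 without control replicate 1 or 2, and 9 with only the 6 libraries, and 1 rose without control replicate 2 or 3 or Vactosertib replicate 3. Rbbp8, which starts the resection of broken ends, kept its call (log2 fold change -0.63 ± 0.14, edgeR adjusted p = 0.00348). The Mre11 partner Rad50 was at 25.8, 35.7 and 35.8 CPM in control and 17.4, 26.5 and 21.2 CPM in treated libraries (log2 fold change -0.58 ± 0.26, edgeR adjusted p = 0.134), and its adjusted p was 0.0214 with only the 6 libraries.

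In the end joining list of 16 genes, 2 rose (12.5%, against 11.8% of all genes), 3 fell (18.8%, against 10.3%) and 11 were not called. The median was -0.16, and -0.27 or -0.0571 without control replicate 1 or 2 and -0.278 or -0.0491 without Vactosertib replicate 2 or 3. Xrcc6, which encodes the end-binding protein Ku70, fell from 21.00, 20.6 and 20.3 to 15.8, 15.4 and 15.6 CPM (log2 fold change -0.40 ± 0.097, edgeR adjusted p = 0.00598), and Lig4, the ligase of the pathway, from 12.6, 12.1 and 12.4 to 8.69, 9.27 and 8.38 CPM (log2 fold change -0.49 ± 0.13, edgeR adjusted p = 0.0137), a call lost without Vactosertib replicate 3 (adjusted p 0.053). With no filter on low counts, the adjusted p was 0.0695 for Xrcc6 and 0.0549 for Lig4. Lig3 fell as well, and without Vactosertib replicate 3 only 1 member of the list fell. Xrcc1, a scaffold of single-strand break repair, rose from 25.4, 24.7 and 25.9 to 34.6, 32.9 and 33.5 CPM (log2 fold change 0.41 ± 0.11, edgeR adjusted p = 0.0108), and so did Paxx (log2 fold change 0.70 ± 0.24, edgeR adjusted p = 0.043), whose call was lost without any control library or Vactosertib replicate 3 (0.0783 to 0.235), which left 1 riser. Parp1, the sensor of strand breaks, was not called (log2 fold change -0.16 ± 0.12, edgeR adjusted p = 0.421). Of 23 genes of nucleotide excision repair, the pathway in which Ercc1 acts, 1 rose (Xab2, log2 fold change 0.42 ± 0.10, edgeR adjusted p = 0.00608), 2 fell (Rad23b, log2 fold change -0.46 ± 0.089, edgeR adjusted p = 0.00125, and Gtf2h1) and 20 were not called (median 0.094, and 0.0576 without control replicate 1 or Vactosertib replicate 3 or 0.0616 without control replicate 2). Without control replicate 1 or Vactosertib replicate 2, 1 of the 23 fell.

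Among 23 p53 targets and inhibitors of cyclin-dependent kinases, 13 rose (56.5%, against 11.8% of all genes), 1 fell (4.35%, against 10.3%) and 9 were not called. The median was 0.32, and 7 rose without control replicate 2. Cdkn1c, the kinase inhibitor p57, rose from 2.50, 1.74 and 2.12 to 6.36, 5.49 and 7.82 CPM (log2 fold change 1.61 ± 0.27, edgeR adjusted p = 0.000363). The stress cytokine Gdf15 rose from 5.45, 5.64 and 5.49 to 9.39, 9.71 and 12.4 CPM (log2 fold change 0.92 ± 0.22, edgeR adjusted p = 0.00594). Perp, a membrane protein induced by p53, was low but higher with treatment, at 0.313, 0.308 and 0.312 CPM in control and 0.858, 1.39 and 1.28 CPM in treated libraries (log2 fold change 1.91 ± 0.50, edgeR adjusted p = 0.0103). Plk2, a kinase induced by p53, went the other way, from 137, 152 and 160.2 to 68.9, 70.97 and 69.4 CPM (log2 fold change -1.10 ± 0.11, edgeR adjusted p = 9.09e-07), and Zmat3, an RNA-binding p53 target, was at 182, 180.1 and 178 CPM in control and 192, 199.5 and 179.7 CPM in treated libraries (log2 fold change 0.08 ± 0.11, edgeR adjusted p = 0.646).

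Most glycolysis genes fell: of 20 tested, 17 fell (85%, against 10.3% of all genes), none rose (0%, against 11.8%) and 3 were not called. The median was -0.57, and 14 to 16 fell with each library left out. For rises in this list, the count was 0 in edgeR at an unadjusted p under 0.05 and 0 by DESeq2. Hexokinase 2 (Hk2), which phosphorylates glucose, went from 74.2, 72.6 and 71.95 to 27.1, 32.5 and 26.7 CPM (log2 fold change -1.34 ± 0.13, edgeR adjusted p = 1.27e-06). Pfkfb3, which makes an activator of phosphofructokinase, fell from 128, 151 and 146 to 40.6, 43.7 and 41.8 CPM (log2 fold change -1.75 ± 0.20, edgeR adjusted p = 7.29e-06). Pdk1, the kinase that keeps pyruvate out of the mitochondrion, fell from 188, 186 and 188 to 102, 90.3 and 86.97 CPM (log2 fold change -1.01 ± 0.091, edgeR adjusted p = 4.68e-07). The lactate exporter Slc16a3 and the aldolase Aldoc fell by 0.96 and 0.97 on the log2 scale. The abundant aldolase Aldoa was not called, at 2047, 1763 and 1776 CPM in control and 1649, 1458 and 1765 CPM in treated libraries (log2 fold change -0.20 ± 0.14, edgeR adjusted p = 0.356). Hif1a, the oxygen-regulated factor that induces many of these genes and that was picked after its values were seen, fell from 435, 437 and 414 to 188, 179 and 174 CPM (log2 fold change -1.25 ± 0.081, edgeR adjusted p = 1.08e-08).

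In amino acid and serine metabolism, 9 of 20 genes fell (45%, against 10.3% of all genes), none rose (0%, against 11.8%) and 11 were not called (median -0.31). For rises, the count was also 0 at an unadjusted p under 0.05 in edgeR and 0 by DESeq2. Mthfd1l, a mitochondrial enzyme of folate metabolism, fell from 81.7, 79.05 and 86.9 to 43.6, 43.6 and 46.3 CPM (log2 fold change -0.89 ± 0.079, edgeR adjusted p = 3.91e-07), and Aldh18a1, which starts proline synthesis, from 285, 301 and 327 to 202, 188 and 172 CPM (log2 fold change -0.70 ± 0.12, edgeR adjusted p = 0.000316). Cth, which makes cysteine, and the cystine transporter Slc7a11 fell by 0.93 and 0.53 on the log2 scale. Atf4, the factor that drives these genes under amino acid stress, was at 347, 310.5 and 289.7 CPM in control and 229, 226 and 264 CPM in treated libraries without a call (log2 fold change -0.40 ± 0.15, edgeR adjusted p = 0.0624), though DESeq2 called it lower (adjusted p 0.0388), as did the fit of only the 6 libraries (0.00786). Of 24 genes of cholesterol synthesis, 5 rose (Idi1, Sqle, Tm7sf2, Insig1 and Srebf2; 20.8%, against 11.8% of all genes), 1 fell and 18 were not called (median 0.26, and 0.158 without Vactosertib replicate 1). Without Repsox replicate 2 and DMH-1 replicate 2 in the fit, 9 rose. The number that rose was 3 without control replicate 1 or 2 or Vactosertib replicate 1 or 3, and 9 with only the 6 libraries. Insig1, a feedback sensor of sterols, rose from 38.9, 38.9 and 35.1 to 58.4, 52.7 and 53.3 CPM (log2 fold change 0.54 ± 0.077, edgeR adjusted p = 7.14e-05).

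Complement genes were mostly higher. Of 18 tested, 11 rose (61.1%, against 11.8% of all genes), 2 fell (11.1%, against 10.3%) and 5 were not called (median 0.67). The genes that fell were C7 and Masp1. The number that rose was 6 without control replicate 1 or Vactosertib replicate 2 and 7 without control replicate 3. Without control replicate 1 or 2 or Vactosertib replicate 1 or 2, 1 member fell. Serping1, the inhibitor of the C1 protease, rose from 86.6, 93.6 and 96.7 to 283, 308 and 314 CPM (log2 fold change 1.71 ± 0.10, edgeR adjusted p = 6.1e-09), and C4b, a component of the classical pathway, from 3.04, 3.95 and 5.74 to 20.5, 25.3 and 22.2 CPM (log2 fold change 2.44 ± 0.27, edgeR adjusted p = 3.9e-06). Cfb, factor B of the alternative pathway, was at 0.134, 0.257 and 0 CPM in control and 0.454, 0.756 and 0.776 CPM in treated libraries (log2 fold change 2.24 ± 0.77, edgeR adjusted p = 0.046), a call lost without 5 single libraries (adjusted p 0.0564 to 0.14) and with all 24 libraries (0.0521). Without control replicate 2 its log2 fold change was 3.04. Interferon-stimulated genes had a median of 0.79, but 2 of 23 rose (8.7%, against 11.8% of all genes) and none fell (0 at an unadjusted p under 0.05 in edgeR and 0 by DESeq2). Ifit2 rose from 13.5, 15.5 and 15.5 to 27.5, 31.9 and 26.96 CPM (log2 fold change 0.96 ± 0.16, edgeR adjusted p = 0.000265). Ifit3 was at 2.15, 2.15 and 2.25 CPM in control and 8.84, 11.8 and 11.9 CPM in treated libraries (log2 fold change 2.31 ± 0.80, edgeR adjusted p = 0.0467), and its call was lost without any 1 of the 6 libraries (adjusted p 0.0697 to 0.122). With only the 6 libraries in the fit, 10 of the 23 rose. Among the 18 libraries of the fit, DMH-1 replicate 2 stood apart in this list, with Ifit3 at 229 CPM against 18.5 in both other DMH-1 libraries and Irf9 at 114 against 36.2 CPM, and the fit of only the 6 libraries leaves it out. Without this library and Repsox replicate 2, 8 of the 23 rose. Irf9, a subunit of the factor that switches these genes on, was at 25.8, 25.2 and 26.6 CPM in control and 31.7, 31.4 and 31.5 CPM in treated libraries (log2 fold change 0.28 ± 0.31, edgeR adjusted p = 0.576, and 0.043 with only the 6 libraries).

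Of 22 secreted cytokines tested, 4 rose (Cxcl12, Ereg, Tslp and Fgf10; 18.2%, against 11.8% of all genes), 7 fell (31.8%, against 10.3%) and 11 were not called (median -0.10, and -0.16, -0.196 or -0.0286 without control replicate 1, 2 or 3 and 0.0053 without Vactosertib replicate 1). Cxcl12, a chemokine of stromal cells, rose from 193, 221 and 227 to 658, 627 and 639 CPM (log2 fold change 1.58 ± 0.087, edgeR adjusted p = 1.55e-09), and Fgf10, a growth factor that signals to epithelium, from 22.6, 26.7 and 28.02 to 73.7, 85.8 and 66.00 CPM (log2 fold change 1.55 ± 0.13, edgeR adjusted p = 2.81e-07). The monocyte chemokine Ccl7 fell from 341, 294 and 266 to 96.6, 84.7 and 125 CPM (log2 fold change -1.56 ± 0.22, edgeR adjusted p = 6.94e-05), and the alarmin Il33 from 3.89, 4.51 and 3.62 to 0.555, 0.756 and 0.388 CPM (log2 fold change -2.78 ± 0.29, edgeR adjusted p = 2.85e-06). Csf1, a growth factor of macrophages, stayed at 864, 979.8 and 1009 CPM in control and 898, 1077 and 1033 CPM in treated libraries (log2 fold change 0.08 ± 0.11, edgeR adjusted p = 0.685). Among 13 insulin-like growth factor genes, 2 rose (Igf2 and Igfbp2; 15.4%, against 11.8% of all genes), 1 fell (Igf2r; 7.69%, against 10.3%) and 10 were not called (median 0.19). Igfbp2, a binding protein of these factors, went from 45.8, 55.5 and 43.8 to 250.2, 256 and 244 CPM (log2 fold change 2.37 ± 0.22, edgeR adjusted p = 6.31e-07), and Igfbp5 from 2238, 3329 and 3272 to 3466, 4136 and 2509 CPM with no call (log2 fold change 0.19 ± 0.33, edgeR adjusted p = 0.737). The binding protein gene Igfbp4 was at 2756, 2429 and 2581 CPM in control and 3412, 3074 and 3642 CPM in treated libraries (log2 fold change 0.38 ± 0.14, edgeR adjusted p = 0.0585), and it was called by DESeq2 (adjusted p 0.0338) and with only the 6 libraries (0.0151). Igf2 had 2 counts in control and 25 in treated libraries, and the receptor gene Igf2r fell (log2 fold change -0.93 ± 0.29, edgeR adjusted p = 0.0279). With libraries left out, 1 member rose without control replicate 1, 2 or 3 or Vactosertib replicate 1 or 2, and none fell without control replicate 2 or 3 or Vactosertib replicate 1 or 3 (Igf2r adjusted p 0.0669 to 0.113, and 0.0827 with all 24 libraries).

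Of 22 Wnt targets and antagonists tested, 10 rose (45.5%, against 11.8% of all genes), 2 fell (Sfrp4 and Wnt9a) and 10 were not called (median 0.77, and 0.77 with Notum at its bound). Sfrp2, a secreted protein that binds Wnt ligands (chromosome 3, 83673628 to 83681623), went from 21.99, 25.6 and 27.8 to 351, 355 and 282 CPM (log2 fold change 3.71 ± 0.13, edgeR adjusted p = 8.41e-12). The ligand Wnt2 rose from 4.33, 3.13 and 4.37 to 21.6, 20.3 and 23.5 CPM (log2 fold change 2.46 ± 0.16, edgeR adjusted p = 1.14e-08), and the antagonist Wif1 from 0.760, 0.0513 and 0.437 to 2.22, 2.94 and 1.94 CPM (log2 fold change 2.47 ± 0.48, edgeR adjusted p = 0.0012, and a log2 fold change of 3.35 without control replicate 1). Notum, an enzyme that inactivates Wnt ligands and is a feedback target, had no count in control libraries and 0.202, 0.438 and 0.776 CPM with Vactosertib, at least 8.89-fold higher at a floor of 3 counts over the group. Without control replicate 1 or 3 or Vactosertib replicate 1 or 2, 1 member of the list fell. The antagonists Dkk2 and Dkk3 were not called (log2 fold change 0.11 ± 0.11, edgeR adjusted p = 0.507, and log2 fold change -0.11 ± 0.098, edgeR adjusted p = 0.476).

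Of 20 fibroblast progenitor and adipogenic genes, 9 rose (45%, against 11.8% of all genes), 2 fell (10%, against 10.3%) and 9 were not called (median 0.56). The falls were in Cebpd and Thy1, with 1 fall left without any control library or Vactosertib replicate 1 or 2. Dlk1, a Notch-like protein of preadipocytes, rose from 9.65, 7.95 and 8.67 to 78.97, 83.03 and 86.3 CPM (log2 fold change 3.24 ± 0.15, edgeR adjusted p = 2.86e-10). Pparg, the master factor of fat cells, went from 1.56, 2.001 and 1.06 to 11.4, 8.83 and 8.21 CPM (log2 fold change 2.60 ± 0.25, edgeR adjusted p = 9.09e-07) and Cebpa, its partner, from 32.1, 31.8 and 34.1 to 82.6, 82.3 and 103 CPM (log2 fold change 1.45 ± 0.12, edgeR adjusted p = 1.61e-07). The mature fat cell markers Adipoq, Cidec, Lep, Retn and Cfd had no count in the 6 libraries. Zfp423, a factor of committed preadipocytes, rose (log2 fold change 1.16 ± 0.27, edgeR adjusted p = 0.00488), and the receptor Pdgfrb, a general marker of fibroblasts and pericytes, was not called (log2 fold change -0.31 ± 0.18, edgeR adjusted p = 0.268).

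**Figure D3:**
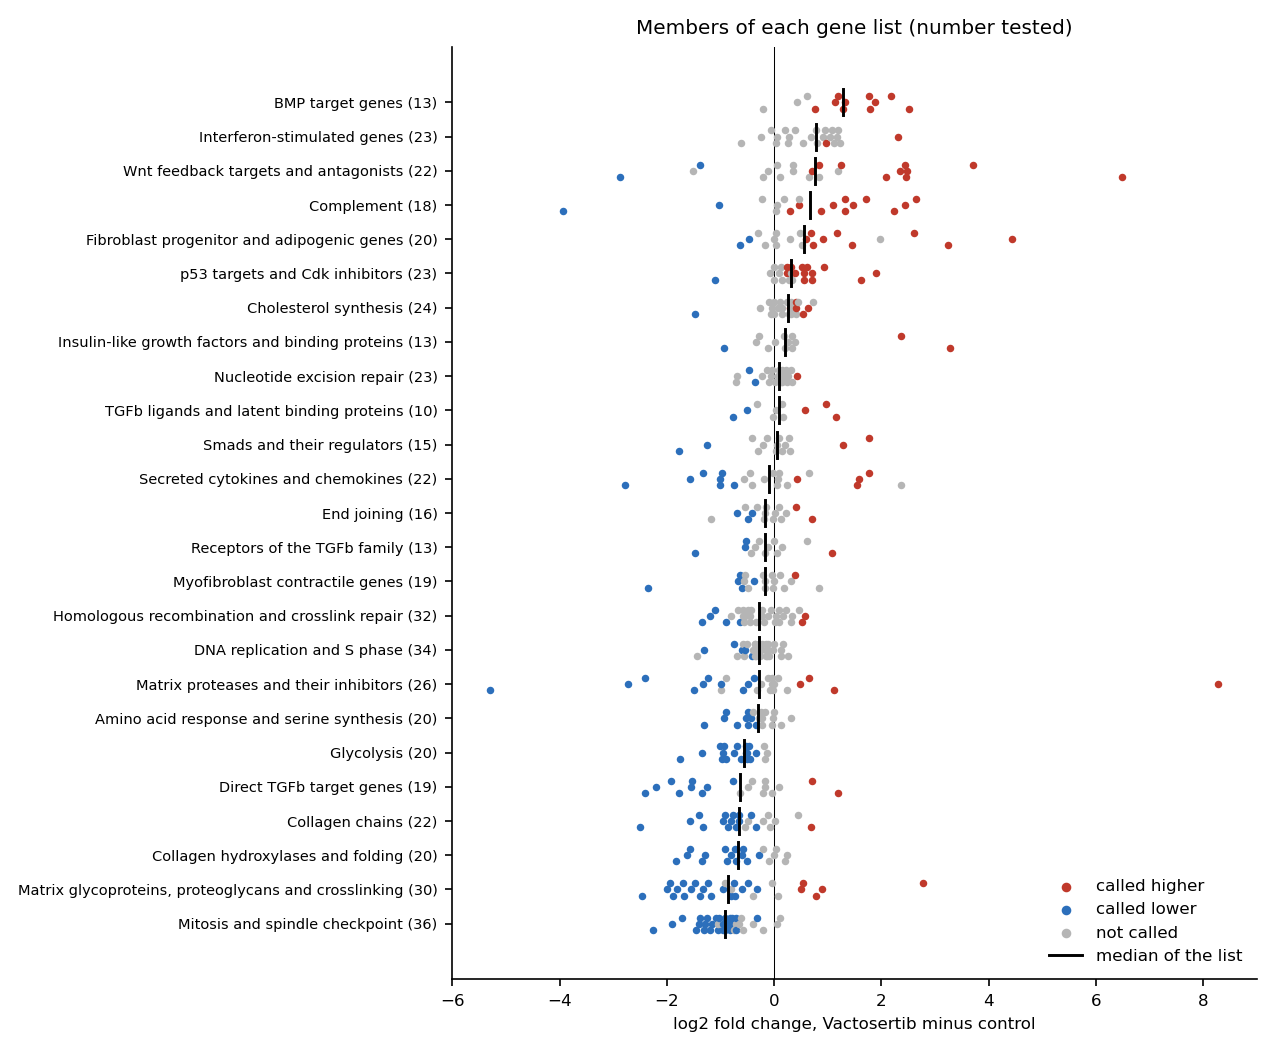
Log2 fold changes (x axis, Vactosertib minus control) of the members of the 25 gene lists (y axis, number tested in brackets), red where a member rose, blue where it fell and grey where it was not called, with a black bar at the list's median. Lists are ordered by median, from BMP targets (1.28) to mitosis (-0.91), against 0.014 over all genes, and the points of Timp4 and Notum, which had no count in control, depend on the prior count of the fit.

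Repsox is another inhibitor of the ALK5 kinase and was given at the same dose and for the same time, so it allows a direct comparison of 1 pair of compounds that uses no control library. No gene was called between Vactosertib and Repsox by edgeR (0% of 15164), with a lowest adjusted p of 0.0913, while 452 genes (2.98%) had an unadjusted p under 0.05. DESeq2 called 3 genes higher and 5 lower with Vactosertib. Repsox replicate 2 stood apart from the other Repsox libraries. It lay more than 1.5-fold outside both of them in 42 of the 144 genes named by rule, against 5 for replicate 1 and 9 for replicate 3. Among these was Fn1, at 3347 CPM against 10885 and 10347 CPM. Mgp, which is not among the 144, was at 799 CPM in replicate 2 against 384 and 405.0 CPM. Without Repsox replicate 2 edgeR still called no gene (lowest adjusted p 0.138), but 1366 genes (8.76%) had an unadjusted p under 0.05. With all 6 libraries, the median absolute log2 difference was 0.099, and for 11942 genes (78.8%) the 95% interval of the difference lay within 2-fold, among them 2935 of the 3354 genes called against control. Without Repsox replicate 2 the median absolute difference was 0.19, and the interval lay within 2-fold for 11412 of 15591 genes (73.2%). A difference that misses the threshold does not show that the compounds act alike.

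The size of each difference is given with its interval as log2 of Vactosertib over Repsox. Id1 was at 46.9 ± 7.65 CPM with Vactosertib and 58.1 ± 23.97 CPM with Repsox (mean ± SD, n = 3; -0.31, 95% interval -0.83 to 0.21), Smad6 at 73.8 ± 5.24 and 75.01 ± 3.08 CPM (-0.02, 95% interval -0.25 to 0.20) and Col1a1 at 23036 ± 604 and 19450 ± 2797 CPM (0.24, 95% interval -0.03 to 0.52). For these 3 genes the interval spans 0. Without Repsox replicate 2 the difference was 0.082 for Id1 and 0.012 for Smad6, both of turned sign, and 0.13 for Col1a1, and each interval still spans 0.

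The intervals of some genes lay off 0 without a call after adjustment. Mmp13 was at 4.09 ± 0.670 CPM with Vactosertib and 2.45 ± 0.193 CPM with Repsox (0.74, 95% interval 0.26 to 1.22), and the lysyl hydroxylase Plod1 at 363 ± 12.8 and 262 ± 37.2 CPM (0.47, 95% interval 0.26 to 0.68). Id4 was at 105 ± 4.46 and 136 ± 15.9 CPM (-0.38, 95% interval -0.60 to -0.16), and Sfrp2 at 329 ± 41.2 and 405 ± 25.2 CPM (-0.30, 95% interval -0.54 to -0.06). Without Vactosertib replicate 3 the Sfrp2 difference was -0.198, and its interval then spans 0 (-0.444 to 0.0484). In each of the 4 the level with Repsox lay farther from control than that with Vactosertib. The reverse was seen in Ccn2, at 183 ± 6.50 CPM with Vactosertib and 231 ± 34.8 CPM with Repsox (-0.34, 95% interval -0.55 to -0.12), and in Cnn1 (-0.41, 95% interval -0.80 to -0.03). These rest in part on Repsox replicate 2, without which the difference was -0.215 for Ccn2 (95% interval -0.414 to -0.0173) and -0.16 for Cnn1, whose interval then spans 0 (-0.50 to 0.17). The Cnn1 interval also spans 0 without Vactosertib replicate 1 (-0.846 to 0.0626) or replicate 2 (-0.839 to 0.0649). Of the 144 genes named by rule, 20 had an interval off 0, with Repsox farther from control in 18 and Vactosertib in 2. Without Repsox replicate 2, 25 had one. Over all genes tested, 2.98% had an unadjusted p under 0.05, and 8.76% without that library. The 144 were taken mostly for large changes against control, and the direction was counted neither over all genes nor for the 25. The split therefore does not describe all genes. Repsox also lay farther from control in the 8 genes that DESeq2 called, named here after their values were seen: Plod1, Fibin and Sertad4 were higher and Cd24a, Gpc3, Bmp4, Esm1 and Sp5 lower with Vactosertib. The lowest edgeR p-value was that of Cd24a, a surface glycoprotein, at 5.73 CPM in control, 11.7 ± 0.353 CPM with Vactosertib and 21.1 ± 1.83 CPM with Repsox (edgeR adjusted p = 0.0913, DESeq2 adjusted p = 1.42e-07).

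**Figure D4:**
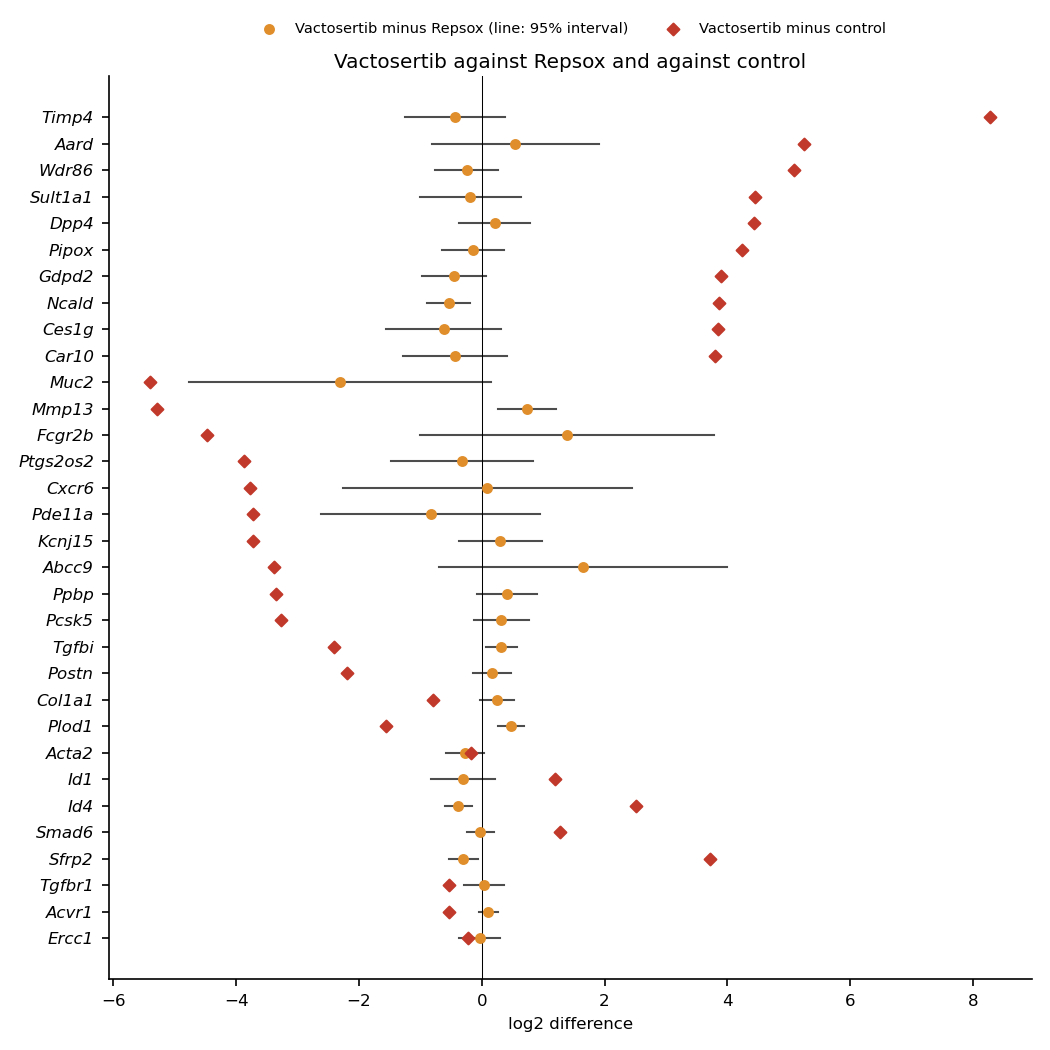
Log2 differences (x axis) for 32 genes (y axis) between Vactosertib and Repsox (orange points with 95% intervals) and between Vactosertib and control (red diamonds, no interval drawn), n = 3 in each group. The orange points lie near 0 for most genes, from -2.31 for Muc2 to 1.65 for Abcc9, where the intervals are wide, while the diamonds reach from -5.39 to 8.28, the latter for Timp4, whose fitted value depends on the prior count because control libraries had no count.

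A83-01 and DMH-1 were given at 1 µM, so their values are set beside those of Vactosertib with no comparison, and all inhibitor groups share the same control libraries. Repsox raised 2025 and lowered 1795 genes against control (13.4 and 11.8%), A83-01 raised 2486 and lowered 2455 (16.4 and 16.2%) and DMH-1 raised 904 and lowered 575 (5.96 and 3.79%). Id4 was at 143 ± 3.01 CPM with A83-01 and 16.5 ± 1.92 CPM with DMH-1, against 18.3 ± 0.902 in control and 105 ± 4.46 with Vactosertib. Mmp13 was at 0.943 ± 0.466 and 120.00 ± 18.6 CPM, and Acta2 at 877 ± 70.4 and 518 ± 56.6 CPM, against 1263 ± 131 in control and 1116 ± 80.5 with Vactosertib.

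The WT control libraries, which differ from the D/KO cells in genotype, age and mouse at once, so that these cannot be told apart, give a second level to read beside the treated cells. Mmp13 was at 0.0923 ± 0.0876 CPM and Sfrp2 at 279.5 ± 11.5 CPM in WT cells, and for both genes the treated D/KO level lay on the WT side of the D/KO control. For others it lay on the far side. Postn was at 6774 ± 719 CPM in WT cells against 2967 ± 354 in D/KO control and 648 ± 59.9 with Vactosertib, and Tgfbi at 223 ± 8.53 against 109.9 ± 7.91 and 20.7 ± 3.71 CPM. For Dlk1 the treated level lay on the WT side again. It was at 9.65, 7.95 and 8.67 CPM in D/KO control libraries, 82.8 ± 3.67 CPM with Vactosertib and 4418 ± 618 CPM in WT cells. Differences between treated D/KO and WT cells were not tested.

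**Figure D5:**
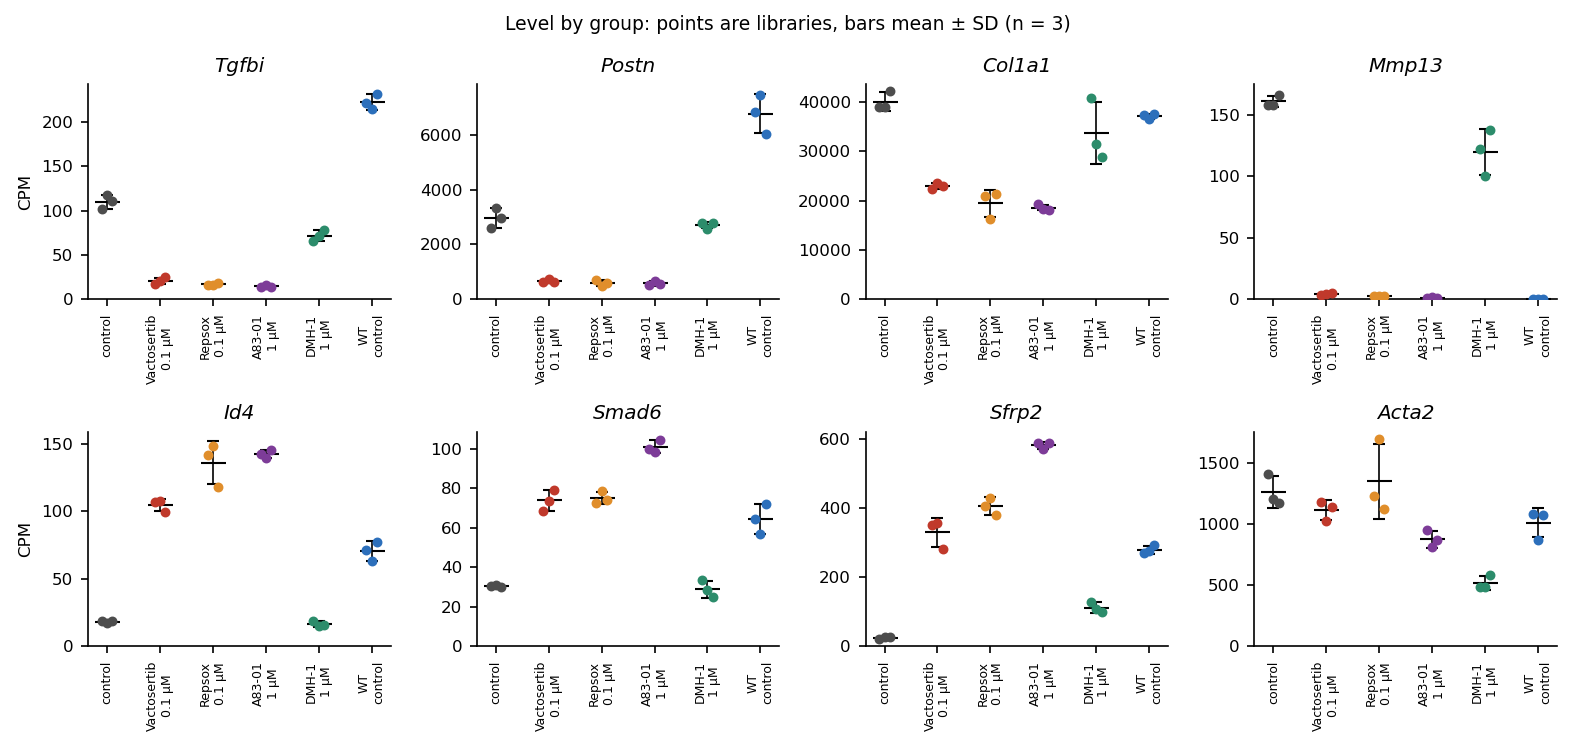
CPM (y axis, from 0) of 8 genes in control, Vactosertib, Repsox, A83-01, DMH-1 and WT control libraries (x axis), with points for libraries and bars for mean ± SD (n = 3). Repsox replicate 2 is the lowest Repsox library in Col1a1 and the highest in Acta2, and the Acta2 mean with DMH-1 is 518 CPM.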

How the data were processed

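Polyadenylated RNA of tail tip fibroblasts was sequenced in paired-end mode on a NovaSeq. The authors deposited a table of raw counts, made with FastQC, Trim Galore, HISAT2 (GRCm39) and featureCounts, and a gene length column (in bases) was not used; versions, strand setting and the treatment of multi-mapping reads are not given in the sources used here. Reads of overlapping genes on opposite strands may therefore not be told apart. Of 56980 gene rows, 98.69% matched GENCODE M39, from which symbols were taken, while coordinates are those of the deposited file.

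In R 4.3.3, edgeR 4.0.16 fitted 1 coefficient per group over 18 libraries (TMM factors, filterByExpr at min.count 10 and min.total.count 15). It kept 15164 genes, with a common biological coefficient of variation of 0.168, and used 12 residual degrees of freedom. A run on simulated counts, with 200 genes changed and the spread of this same fit, checked the code alone. It is no support for the calls. Variance between replicate control or Vactosertib libraries was 4.08 to 29.9 times that of counting noise, so no libraries were merged. Among control libraries, replicate 1 stood apart, at 23.6 times against replicate 2 and 25.2 against replicate 3. Control replicates 2 and 3 were at 4.08, and Vactosertib pairs at 11.2 to 29.9. Alternatives were DESeq2 1.42.0, its size factors, other filters, other sets of libraries, a 2-fold threshold, centring and each library left out. The members, gene lists (25) and named genes were chosen with earlier results of these data known. Named are the 10 largest non-overlapping rises and falls of at least 1 CPM, up to 5 called and 2 other members per list, the drug targets and a few pathway genes, and, picked after their values were seen, 12 genes and those that DESeq2 called against Repsox. Dose and duration are those the study gives for DNA taken from the same samples. Some genes that the rule takes are not reported here, and libraries of other experiments of the series were not used.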

Additional observations from a re-analysis of the deposited data

How the results depend on the processing

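Requiring a 2-fold change left 687 genes higher and 470 lower against control. The other settings, 1 of them (no Repsox replicate 2 or DMH-1 replicate 2) chosen after seeing the data, gave 1467 to 2262 higher and 1317 to 2146 lower, and leaving out 1 library gave 1362 to 1485 higher and 1122 to 1247 lower. Between Vactosertib and Repsox, edgeR called 0 genes in every setting (452 at an unadjusted p under 0.05 as reported) and DESeq2 called 3 higher and 5 lower, a difference whose cause was not tested. Only the median of the cytokine list turned its sign (-0.102, ranging from -0.196 to 0.00527 with 1 library left out, the latter without Vactosertib replicate 1). Of the 125 called genes among those named by rule, 112 kept their call without any 1 library. No paired analysis was possible because the labels give the libraries no shared replicate numbers. Depth limits folds of genes with few counts, and a group with no count was set at a floor of 3 counts over the group.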

Other observations

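Outside the gene lists, 99 abundant genes (a mean of at least 100 CPM in the higher group) changed at least 2-fold with Vactosertib, 55 upwards and 44 downwards; the 5 largest in each direction are given, and all were picked after their values were seen. Spp1, the secreted phosphoprotein osteopontin, fell from 1046, 958 and 840.2 CPM in control to 124, 113 and 159 CPM in treated libraries (log2 fold change -2.84 ± 0.18, edgeR adjusted p = 9.67e-09), and Ptgs2, the inducible cyclooxygenase, from 128, 130.00 and 122 to 16.97, 16.3 and 18.6 CPM (log2 fold change -2.87 ± 0.11, edgeR adjusted p = 3.6e-11). Lrrc15, a surface protein of activated fibroblasts that TGFb induces, fell from 127, 145 and 153 to 26.00, 29.04 and 21.4 CPM (log2 fold change -2.47 ± 0.23, edgeR adjusted p = 5.45e-07). Fam20a, a pseudokinase of the secretory pathway, and Sorcs2, a sorting receptor, fell by 2.69 and 2.43 on the log2 scale.

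In the other direction, Pamr1, a secreted protein with a protease-like domain, rose from 36.6, 45.8 and 44.9 to 479.6, 513 and 460.00 CPM (log2 fold change 3.51 ± 0.098, edgeR adjusted p = 9.43e-13), and Clec3b, the matrix protein tetranectin, from 14.1, 14.4 and 14.98 to 122, 127 and 158 CPM (log2 fold change 3.23 ± 0.22, edgeR adjusted p = 2.07e-08). Mgp, an inhibitor of calcification that also binds BMP ligands, rose from 78.8, 61.6 and 62.03 to 376, 358 and 474 CPM (log2 fold change 2.58 ± 0.27, edgeR adjusted p = 2.12e-06). Rspo2, an enhancer of Wnt signalling, and Gpnmb, a transmembrane glycoprotein, rose with log2 fold changes of 2.71 and 2.84. Treated and control libraries did not overlap in any of these 10 genes.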
